A study of Mus musculus with 40 samples.

Results

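Adh7 and Prr32 are 2 of the 22844 genes in a table of messenger RNA from the EDL (extensor digitorum longus) of mice, a fast muscle of the lower leg. They were chosen by their measured pattern in these libraries, as genes that were high in muscle of 9-month-old Tsc1 knockout mice and low again after rapamycin. Both were found in the table by gene symbol, and each symbol matched 1 gene. The contrasts that selected them are therefore described here without a test, and tests of both genes are given only for other comparisons. Some of these share a group, such as 9mCON, with the selecting contrasts, which limits what their tests can show.

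All 40 libraries came from mice of the strain Tsc1tm1Djk/J, which carry a floxed Tsc1 allele. In knockout mice (TSCmKO) the muscle fibers have lost Tsc1, which normally holds the kinase complex mTORC1, a driver of cell growth, in check. Control mice (CON) were Tsc1fl/fl littermates without Cre recombinase. Mice of both genotypes were 3 or 9 months old and were injected with vehicle or with rapamycin (RM), an mTORC1 inhibitor, for 3 days before dissection. This gave 8 groups, written 3mCON, 3mCON+RM, 3mTSCmKO, 3mTSCmKO+RM, 9mCON, 9mCON+RM, 9mTSCmKO and 9mTSCmKO+RM, each with 5 libraries. The p-values given measure the spread between these libraries. The dose is uncertain, since the labels state 4 mg per kg and the text of the study a higher one. The promoter that drives Cre is not given in the sources used here. The knockout is constitutive, so that its effect at 9 months cannot be told apart from that of the time since the loss of Tsc1. Whole muscle was sequenced, and in such bulk samples fewer cells of a type and less RNA per cell cannot be told apart.

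Total counts ranged from 8883870 to 35224669 per library, and the correlation of log2 CPM between libraries of a group ranged from 0.934 to 0.992. Tsc1 checked the genotype labels, with 51.3 to 133.7 CPM (a library's counts scaled to its depth with edgeR's TMM factors) in control libraries and 17.8 to 35.8 CPM in knockout libraries, without overlap. The insert sizes on the labels ran from 175 to 239 nt in libraries of 3-month-old mice and from 223 to 308 nt in those of 9-month-old mice, so that they overlapped but differed with age. The summed level of 8 muscle fiber markers, among them Myh4, Ckm and Acta1, was 145400 to 162400 TPM (a share of the library's transcripts, which corrects for transcript length) in 9mCON, 110600 to 125100 TPM in 9mTSCmKO and 131500 to 148500 TPM in 9mTSCmKO+RM, with 0 of the 8 called higher and 5 called lower in 9mTSCmKO than in 9mCON, where 37.9% of all tested genes were called. With rapamycin in 9mTSCmKO 4 of the 8 were called higher and 1 lower, beside 32.6% of all tested genes.

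Alcohol dehydrogenases oxidize alcohols to aldehydes, and aldehyde dehydrogenases carry the aldehydes on to acids. Adh7, the class IV member of the family, acts on ethanol and on retinol, so that it can take part in the first step from vitamin A to retinoic acid, and it is best known from the lining of the stomach and upper digestive tract. Prr32 encodes a proline-rich protein whose function is little described.

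Adh7 (ENSMUSG00000055301) lies on chromosome 3 from 138217760 to 138233382 on the plus strand of GRCm38, as the GENCODE M21 annotation places it. Its coding transcript has 9 exons and 3432 nt, of which 1122 nt code for 374 amino acids. Prr32 (ENSMUSG00000037086) lies on chromosome X from 45090904 to 45092791 on the plus strand, with 2 exons, a transcript of 1110 nt and 284 amino acids. The short Prr32 transcript means that equal counts give a higher TPM for Prr32 than for Adh7. No 31-base stretch of the Prr32 transcript occurred in a transcript of another listed gene, and 2.38% of those of Adh7 did, mostly in 0610031O16Rik, an antisense gene that overlaps Adh7.

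The promoter windows of both genes are shown because both genes were high in the same 5 libraries. Each window runs from 250 bases before to 50 bases after the RefSeq transcript start (table build GRCm38.p6, plus strand), and 2 of 2 genes were matched. Capitals mark CANNTG, the E-box, in both windows. In the Adh7 window they also mark a TATAAA read on the minus strand and a TGAGTCA, the AP-1 site.
Adh7, chr3:138217523-138217822: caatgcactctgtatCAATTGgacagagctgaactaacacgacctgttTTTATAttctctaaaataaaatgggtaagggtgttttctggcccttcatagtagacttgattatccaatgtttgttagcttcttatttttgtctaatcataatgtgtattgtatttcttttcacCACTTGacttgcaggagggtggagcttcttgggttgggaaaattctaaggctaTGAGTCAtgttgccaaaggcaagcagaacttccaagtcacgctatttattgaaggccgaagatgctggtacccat
Prr32, chrX:45090654-45090953: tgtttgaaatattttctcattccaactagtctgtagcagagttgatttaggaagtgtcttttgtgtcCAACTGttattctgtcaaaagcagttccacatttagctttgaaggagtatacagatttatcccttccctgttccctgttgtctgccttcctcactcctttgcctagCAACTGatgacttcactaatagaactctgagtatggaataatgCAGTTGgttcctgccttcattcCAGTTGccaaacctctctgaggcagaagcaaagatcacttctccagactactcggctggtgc

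Both windows were poor in G and C, with 39.3% in Adh7 and 42.7% in Prr32 against a median of 52.7% over 32851 windows. Adh7 held 3 CpG pairs and Prr32 1, where the median window held 7. CANNTG occurred at 2 places in Adh7, starting 235 and 78 bases before the start, and at 4 places in Prr32, starting 183, 77, 34 and 12 bases before it. This motif was present in 72.3% of all windows. TATAAA on the minus strand began 202 bases before the Adh7 start and was absent from the Prr32 window, and 13.6% of windows held it on either strand. TGAGTCA, which was added to the search after the sequences had been read, lay 25 bases before the Adh7 start, was absent from Prr32, and occurred in 5.2% of windows.

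Other motifs searched on both strands were absent from both windows. These were TGACNNNGC, the core of the antioxidant response element (present in 12.4% of windows), TGATGNAA and TTGCATCA, the C/EBP-ATF elements (3.97% and 0.895%), TCACGTGA and GTCACGTG, the E-boxes of TFEB and its relatives (0.974% and 2.25%), and TGACGTCA, the cyclic AMP response element (1.79%). The DR5 retinoic acid response element (0.00913%) and the MEF2-like motif (3.69%) were absent as well. TCACGTGA and GTCACGTG hold a CANNTG and can overlap each other. A match here is a description of letters in this window, and no match says only that the letters are not in it.

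In 9mTSCmKO muscle, Adh7 stood at 20.4, 13.3, 53.4, 18.6 and 10.8 CPM in replicates 1 to 5, which rested on 226 to 956 counts per library. In 9mCON it was 0.768, 0.981, 0.487, 0.164 and 0.826 CPM. The groups did not overlap, and the lowest 9mTSCmKO library held 6.90 times the highest Adh7 level among the 35 libraries of the other groups. Of all tested genes 37.9% were called between 9mTSCmKO and 9mCON. The mean was 0.645 ± 0.323 CPM (SD, n = 5) in 9mCON and 23.3 ± 17.3 CPM (SD, n = 5) in 9mTSCmKO, a fitted log2 difference of 5.17 (SE 0.467, 95% interval 4.23 to 6.12).

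Prr32 followed the same outline at a lower count. Its CPM in 9mTSCmKO was 7.28, 11.9, 32.8, 13.3 and 8.66 in replicates 1 to 5, on 140 to 587 counts per library. The 9mCON libraries held 0.354, 0.226, 0.162, 0.546 and 0.258 CPM, and these groups did not overlap either, in a contrast where 37.9% of all tested genes were called. Means were 14.8 ± 10.3 CPM (SD, n = 5) in 9mTSCmKO and 0.309 ± 0.149 (SD, n = 5) in 9mCON, with a fitted log2 difference of 5.50 (SE 0.459, 95% interval 4.57 to 6.42).

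**Figure D1:**
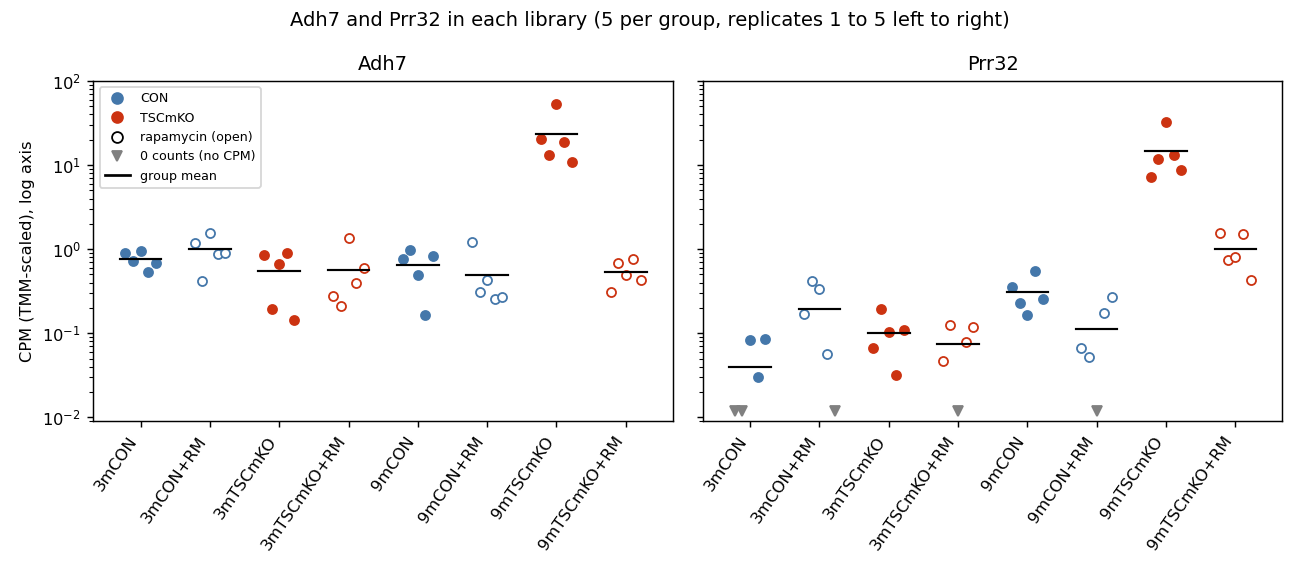
CPM of Adh7 (left) and Prr32 (right) on a log axis in the 5 libraries of each of 8 groups, with CON in blue, TSCmKO in red, open circles for rapamycin, a bar for the group mean and grey triangles for libraries with 0 counts. For both genes the 5 vehicle-treated 9mTSCmKO libraries lie above all 35 others, and rapamycin-treated 9mTSCmKO libraries of Prr32 remain above 9mCON+RM.

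After 3 days of rapamycin, Adh7 in 9mTSCmKO muscle was in the range of control muscle. Its values in 9mTSCmKO+RM were 0.313, 0.692, 0.489, 0.758 and 0.427 CPM, with a mean of 0.536 ± 0.185 (SD, n = 5). All 5 lay below the vehicle-treated knockout libraries and within the range of 9mCON, in a contrast where 32.6% of all tested genes were called. The fitted log2 difference from 9mTSCmKO was -5.41 (SE 0.477, 95% interval -6.38 to -4.45), the most negative of the 13543 genes tested in that contrast. In the means, rapamycin removed 100.5% of the Adh7 excess over 9mCON.

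Prr32 was also lower after rapamycin, but did not reach the control level. The 9mTSCmKO+RM libraries held 1.56, 0.749, 0.816, 1.52 and 0.427 CPM, a mean of 1.01 ± 0.503 (SD, n = 5). This was 3.28 times the 9mCON mean, and the lowest of the 5 lay inside the 9mCON range. The fitted log2 difference from 9mTSCmKO was -3.89 (SE 0.400, 95% interval -4.70 to -3.08), rank 10 among all falls, and 95.1% of the excess over 9mCON was removed.

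Knockout and control were also compared among rapamycin-treated mice of 9 months. Adh7 in 9mCON+RM was 1.22, 0.309, 0.434, 0.258 and 0.270 CPM, overlapping 9mTSCmKO+RM, and the fitted log2 difference was 0.11 (SE 0.605, 95% interval -1.11 to 1.34). Prr32 in 9mCON+RM was 0.0675, 0.0514, 0, 0.172 and 0.270 CPM, and all of these lay below the 9mTSCmKO+RM libraries. Of all tested genes 20.6% were called in this contrast. The fitted log2 difference of Prr32 was 3.12 (SE 0.638, 95% interval 1.83 to 4.41), from 1 to 4 counts in the control libraries that had any. When 1 library was left out the Adh7 difference ran from -0.0457 to 0.7525, and on log2(TPM + 1) the Prr32 difference was 1.148. Whether the remaining Prr32 difference exceeds that of Adh7 was not tested, since both genes were chosen with these libraries.

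Both genes were highest in 9mTSCmKO replicate 3. Adh7 there was 3.38 times the mean of the other 4 libraries, and Prr32 was 3.19 times. Without this library the 9mTSCmKO means were 15.8 ± 4.48 CPM (SD, n = 4) for Adh7 and 10.3 ± 2.78 CPM (SD, n = 4) for Prr32, and the fitted log2 differences from 9mCON were 4.61 and 4.97. The order of the other libraries differed between the genes, since replicate 1 was second for Adh7 and lowest for Prr32.

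Replicate 3 was not the deepest of its group, with 16750016 counts, where the group ranged from 15936309 to 20867776. Its summed muscle fiber markers were the lowest of the group at 110600 TPM, and its 4 macrophage markers were the highest at 30.74 TPM, where the group ranged from 16.17 to 30.74 TPM. It also had the lowest summed endothelial (84.09 TPM) and Schwann cell (46.92 TPM) markers of the group. The part of these in the levels of Adh7 and Prr32 was not tested.

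On the TPM scale, which allows genes to be compared per length, Prr32 was the more abundant of the pair in every 9mTSCmKO library. Prr32 had 24.4 ± 15.3 TPM (SD, n = 5) and Adh7 15.5 ± 10.4 TPM (SD, n = 5). The ratio of Prr32 to Adh7 in TPM ranged from 1.04 to 2.13 over the 5 libraries.

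In muscle of 3-month-old mice both genes were low in knockout and control. Adh7 was 0.896, 0.728, 0.950, 0.536 and 0.676 CPM in 3mCON and 0.857, 0.196, 0.668, 0.896 and 0.144 CPM in 3mTSCmKO, with overlap. In edgeR's quasi-likelihood test with Benjamini-Hochberg adjustment the log2 difference was -0.43 (SE 0.524, 95% interval -1.50 to 0.63, adjusted p = 0.618), where 19.8% of all tested genes were called in this contrast.

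Prr32 was at the floor of detection at 3 months. Counts were 0, 0, 2, 1 and 1 in 3mCON, 1, 3, 2, 1 and 3 in 3mTSCmKO, and 1, 3, 0, 2 and 2 in 3mTSCmKO+RM, so that no library of these groups passed 3 counts. No fold is given for Prr32 between 3mTSCmKO and 3mCON or between 3mTSCmKO+RM and 3mTSCmKO, and a difference was not detectable at this depth. Between 3mTSCmKO and 9mTSCmKO, Adh7 differed by 5.37 on the log2 scale (SE 0.464), and Prr32 was at least 98.3-fold higher at 9 months, taking 3 counts in each 3mTSCmKO library as the floor.

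Adh7 was not called with rapamycin in either genotype at 3 months. In 3mTSCmKO+RM its values were 0.278, 0.210, 1.35, 0.393 and 0.593 CPM, and the log2 difference from 3mTSCmKO was -0.04 (SE 0.533, 95% interval -1.11 to 1.04, adjusted p = 0.974 in edgeR's quasi-likelihood test), with 23.6% of all tested genes called. In 3mCON+RM Adh7 was 1.19, 0.416, 1.57, 0.884 and 0.900 CPM, a log2 difference from 3mCON of 0.33 (SE 0.507, 95% interval -0.70 to 1.35, adjusted p = 0.957), with 0.679% of genes called. Among rapamycin-treated mice of 3 months, Adh7 was 0.80 lower in the knockout on the log2 scale (95% interval of the difference -1.85 to 0.26, adjusted p = 0.419), and 10% of genes were called.

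No library of a 3-month or control group reached 1 CPM of Prr32, and Prr32 was in the fit only because of the 9-month knockout libraries, where it was chosen for being high. The Prr32 values for those groups rest on 0 to 10 counts per library and are given with no finding read from them. Prr32 in 3mCON+RM was 0.170, 0.416, 0.337, 0.057 and 0 CPM, on at most 6 counts. Against 3mCON the fitted log2 difference was 1.72 (SE 0.966, 95% interval -0.24 to 3.67, adjusted p = 0.651), and against it 3mTSCmKO+RM differed by -0.93 (SE 0.848, 95% interval -2.64 to 0.79, adjusted p = 0.610), both by edgeR's quasi-likelihood test. One group of each pair was at the floor, so that the fitted sizes depend on very few counts.

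In control muscle of 9 months, Adh7 was not called with rapamycin. Adh7 differed by -0.36 on the log2 scale between 9mCON+RM and 9mCON (SE 0.590, 95% interval -1.55 to 0.84, adjusted p = 0.771 by edgeR). The 9mCON group was also part of the contrasts that chose Adh7, so that nothing is read from this test. For Prr32 the groups overlapped, on 0 to 10 counts per library, and the means were 0.309 CPM without and 0.112 CPM with rapamycin, a fitted difference of -1.51 (SE 0.754, 95% interval -3.04 to 0.01, adjusted p = 0.209) from which nothing is read. Of all tested genes 11.8% were called in this contrast.

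With age in control muscle, Adh7 differed by -0.23 on the log2 scale (SE 0.537, 95% interval -1.32 to 0.85, adjusted p = 0.864 by edgeR) between 9mCON and 3mCON. Since 9mCON had a part in the choice of both genes, this comparison has the same limit. Prr32 was higher in each of the 5 9mCON libraries, with 2 to 10 counts, than in any 3mCON library, with 0 to 2 counts, so that the CPM ranges did not overlap. The fitted log2 difference was 2.79 (SE 0.844, 95% interval 1.08 to 4.50) and missed the threshold after adjustment (adjusted p = 0.0777), while 1.02% of all tested genes were called. These 138 genes became 30 without 9mCON replicate 2 and 942 without 9mCON replicate 5. Without 9mCON replicate 5 the adjusted p of Prr32 was 0.0435, and other analyses also put it on either side of the threshold, so that with 10 counts or fewer per library and a gene in the fit only through other groups nothing is read from it.

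**Figure D2:**
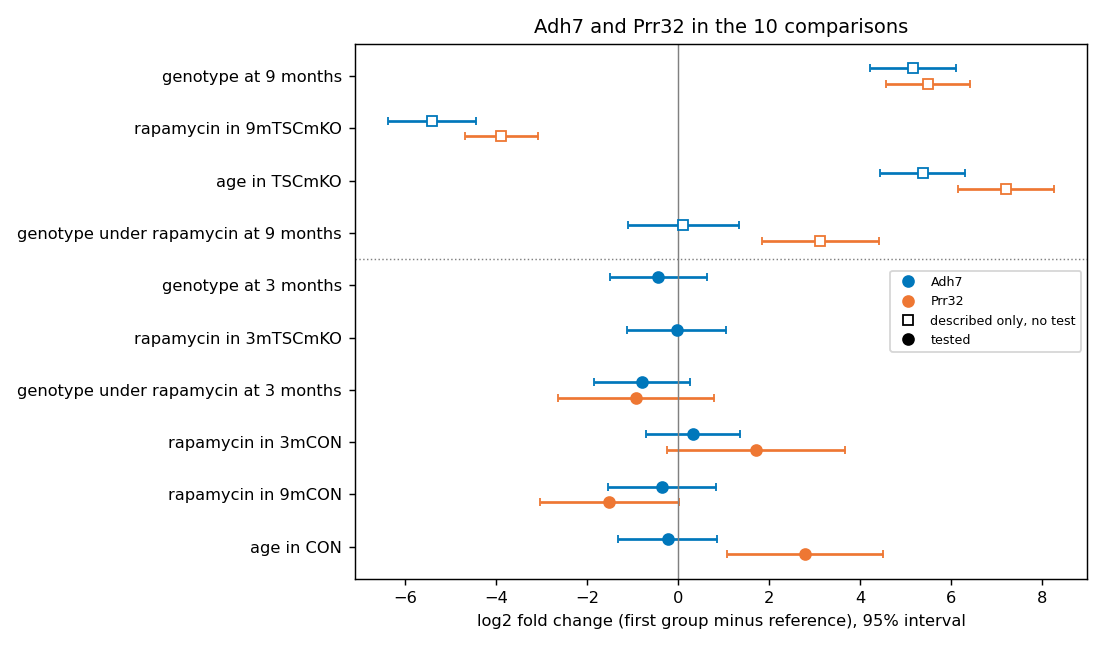
Fitted log2 fold change with 95% interval of Adh7 (blue) and Prr32 (orange) in 10 comparisons, open squares where the genes were chosen by the pattern and no test is given, filled circles where a test is given. The Prr32 point for age in TSCmKO rests on a 3-month group at the floor of counts. The Adh7 intervals of all 6 tested comparisons cross 0, the Prr32 interval for age in CON does not, and Prr32 has no point for genotype at 3 months and rapamycin in 3mTSCmKO, where both groups were at the floor. Prr32 was in the fit only through the 9-month knockout libraries. Its filled circles rest on 10 counts or fewer per library, and nothing is read from them.

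The effects of rapamycin were also compared between genotypes and between ages. For Adh7 the rapamycin difference in 3mTSCmKO minus that in 3mCON was -0.36 on the log2 scale (95% interval -1.86 to 1.14, adjusted p = 0.904 by edgeR). Of all 13543 genes 467 were called. No such comparison is given for Prr32, since 3 of its 4 groups at 3 months were at the floor. The rapamycin difference in CON at 9 months minus that at 3 months was -0.68 for Adh7 (95% interval -2.26 to 0.89, adjusted p = 0.987), and 127 of all 13543 genes were called. This comparison uses 9mCON, a group of the selecting contrasts, so that nothing is read from it.

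Ordered by mean CPM, Adh7 was highest in 9mTSCmKO, and the other 7 group means lay between 0.497 (9mCON+RM) and 0.992 CPM (3mCON+RM), each overlapping its neighbour in the order. Prr32 was highest in 9mTSCmKO, followed by 9mTSCmKO+RM, 9mCON and 3mCON+RM. The lowest mean was that of 3mCON at 0.0394 CPM. Apart from the step below 9mTSCmKO, neighbours in the Prr32 order overlapped too. Of the summed CPM over all 40 libraries, 83.7% of Adh7 and 88.9% of Prr32 lay in the 5 libraries of 9mTSCmKO.

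Adh7 passed the filter of 1 CPM in 5 libraries through 10 libraries and Prr32 through 7, and 5 of these were 9mTSCmKO for each gene. Without that group Adh7 would have had 5 libraries at 1 CPM and Prr32 2.

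The 5 other alcohol dehydrogenase genes lie on the same strand of chromosome 3 beyond Adh7, and only Adh1 and Adh5 were expressed enough to be tested. Adh5, the class III enzyme that also handles S-hydroxymethylglutathione, was the most abundant, with group means of 58.4 to 70.9 TPM. Adh5 had 64.5 TPM in 9mCON and 69.3 TPM in 9mTSCmKO, a log2 difference of 0.05 (SE 0.0943, adjusted p = 0.693 by edgeR). Adh1, the class I enzyme of the liver, had group means of 16.1 to 30.0 TPM, and a log2 difference at 9 months of 0.12 (SE 0.222, adjusted p = 0.698).

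With rapamycin in 9mTSCmKO, Adh1 differed by -0.20 on the log2 scale (adjusted p = 0.510 by edgeR) and Adh5 by -0.14 (adjusted p = 0.275). Thus neither of the 2 tested family members was called in the genotype contrast at 9 months, or with rapamycin in 9mTSCmKO, beside 37.9% and 32.6% of all genes, which for 2 genes says little about the family. Adh6b, Adh6a and Adh4 were not tested, since no library exceeded 12, 4 and 2 counts of them. In 9mTSCmKO, Adh7 at 15.5 TPM thus stood next to Adh1 at 18.9 TPM, whereas in the other groups it was below 1 TPM on average.

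**Figure D3:**
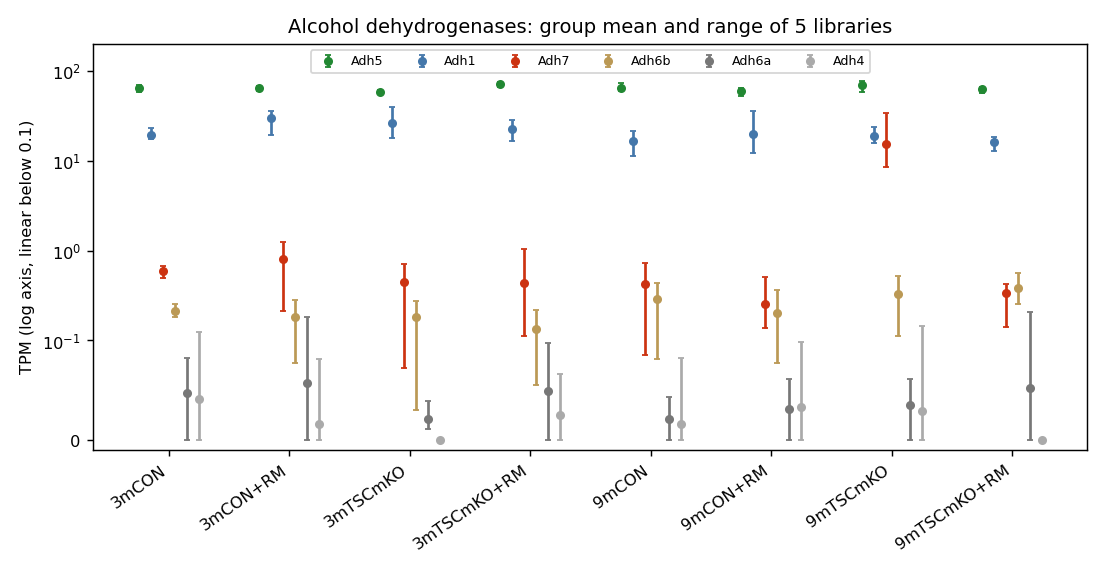
Mean TPM (point) and range over 5 libraries (bar) of 6 alcohol dehydrogenases in the 8 groups, on an axis that is logarithmic above and linear below 0.1 TPM. Adh7 (red) is near 15.5 TPM in 9mTSCmKO and below 1 TPM on average elsewhere, while the group means of Adh5 and Adh1 stay within 58.4 to 70.9 and 16.1 to 30.0 TPM.

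On chromosome 3, Adh1 lies 27.6 kb beyond the end of Adh7. The antisense gene 0610031O16Rik spans Adh7 on the other strand, and it was at 0.188 CPM in 9mTSCmKO and 0.215 CPM in 9mCON, at most 0.532 CPM in any library. The authors counted with a strand option. Of the 3 nearest listed genes on the other side, 4930579F01Rik was not tested, at 0.2187 CPM or less.

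Trmt10a, a transfer RNA methyltransferase 57.9 kb away, was 0.74 higher in 9mTSCmKO on the log2 scale (adjusted p = 0.00303 by edgeR) and gave no call with rapamycin (-0.38, adjusted p = 0.131). Mttp, the microsomal triglyceride transfer protein 72.8 kb away, was not called for genotype (0.19, adjusted p = 0.467) and rose with rapamycin by 1.19 (adjusted p = 9.33e-06). Beyond Adh1, Gm16559 and Adh6a were not tested. Neither tested gene on this side had the pair of changes of Adh7.

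Prr32 lies in a gene-poor stretch of chromosome X. Its nearest listed gene, Dcaf12l1, a WD-repeat protein gene 300.7 kb away, was 0.438 ± 0.260 CPM in 9mCON, 5.41 ± 2.04 in 9mTSCmKO and 2.05 ± 1.19 in 9mTSCmKO+RM (SD, n = 5 each). Dcaf12l1 thus rose by 3.53 on the log2 scale with genotype (adjusted p = 4.06e-08 by edgeR) and fell by 1.39 with rapamycin (adjusted p = 0.00440), the same directions as Prr32. Tenm1 and Sh2d1a, next on that side, were not tested.

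On the far side the nearest listed gene is 2716.6 kb away. This gene, Smarca1, a chromatin remodeler, was 0.61 higher in 9mTSCmKO (adjusted p = 0.0201 by edgeR) and -0.04 with rapamycin (adjusted p = 0.909). Ocrl, an inositol phosphatase, was lower by genotype (-0.26, adjusted p = 0.0409) and rose with rapamycin by 0.49 (adjusted p = 0.000230). Apln, the apelin hormone, fell with genotype (-1.84, adjusted p = 0.000661) and gave no call with rapamycin (-0.46, adjusted p = 0.497). Without 1 library the calls of Smarca1 (adjusted p up to 0.0894, without 9mTSCmKO replicate 4) and Ocrl (up to 0.111, without 9mTSCmKO replicate 3) for genotype were lost, and that of Ocrl held in 4 of 10 such fits.

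Around Adh7, the retinoid pathway list held 29 genes, of which 23 were tested. At 9 months 6 rose and 6 fell with genotype, so that 12 of 23 were called beside 37.9% of all genes, and the median log2 difference was -0.06 where that of all genes was -0.02. In a fit on 9mCON and 9mTSCmKO alone 4 of the 23 were called, and 2647 of all genes in place of 5133. With rapamycin in 9mTSCmKO 2 rose and 2 fell, beside 32.6% of all genes called. At 3 months 3 rose and 4 fell with genotype, beside 19.8% of all genes, and 5 rose and 3 fell with rapamycin in 3mTSCmKO, beside 23.6%. Without 9mTSCmKO replicate 3, genotype at 9 months gave 4 rising and 5 falling genes.

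Rdh11 and Rara, from this list, rose with genotype and fell with rapamycin. Rdh11, a retinal reductase, went from 2.44 ± 0.523 TPM in 9mCON to 4.54 ± 1.15 in 9mTSCmKO and 3.06 ± 0.484 in 9mTSCmKO+RM (SD, n = 5 each). Its log2 differences were 0.93 (adjusted p = 7.06e-05 by edgeR) and -0.73 (adjusted p = 0.00151). Rara, a retinoic acid receptor, moved by 0.34 (adjusted p = 0.00913) and -0.41 (adjusted p = 0.00220). Rxrb, a retinoid X receptor, moved the other way, by -0.38 (adjusted p = 0.000751) and 0.46 (adjusted p = 8.53e-05).

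The changes of Rdh11, Rara and Rxrb were all below 1 on the log2 scale, against more than 3 for Adh7 and Prr32. Larger genotype differences at 9 months in the list were all falls. They were -1.625 for Rxrg, -1.717 for Stra6 and -1.101 for Rdh5 (adjusted p = 2.91e-10, 0.00847 and 0.0101 by edgeR). These genes were not called with rapamycin in 9mTSCmKO. The enzymes that turn retinal into retinoic acid, Aldh1a1, Aldh1a2 and Aldh1a3, gave no call with rapamycin in 9mTSCmKO (adjusted p = 0.765, 0.792 and 0.328 by edgeR).

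The other aldehyde dehydrogenases held 15 genes, of which 14 were tested. With genotype at 9 months 7 rose and 3 fell, beside 37.9% of all genes called, and in a fit on these groups alone 6 were called. With rapamycin in 9mTSCmKO 1 rose and 5 fell, beside 32.6% of all genes. Their median log2 differences were 0.26 and -0.05, where those of all genes were -0.02 and -0.05. At 3 months 3 rose and 2 fell with genotype, beside 19.8% of all genes, and 2 rose and 4 fell with rapamycin, beside 23.6%. The same counts were found at 9 months without 9mTSCmKO replicate 3.

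Of these, 5 rose with genotype and fell with rapamycin at 9 months. The share of all genes with both changes was not counted, so that no excess is read from this number. Aldh1b1, a mitochondrial aldehyde dehydrogenase, had the largest changes, with 0.510 ± 0.0924 TPM in 9mCON, 2.48 ± 0.674 in 9mTSCmKO and 0.592 ± 0.237 in 9mTSCmKO+RM (SD, n = 5 each). On the log2 scale it rose by 2.33 (SE 0.431, adjusted p = 4.17e-05 by edgeR) and fell by 2.06 (SE 0.422, adjusted p = 0.000234). Its 9mTSCmKO libraries lay above both other groups.

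Aldh18a1, a proline synthesis enzyme, rose by 1.16 on the log2 scale (adjusted p = 2.66e-05 by edgeR) and fell by 0.68 (adjusted p = 0.00920). Aldh8a1 rose by 1.44 (adjusted p = 0.00572) and fell by 1.18 (adjusted p = 0.0240), and Aldh3b1 rose by 1.41 (adjusted p = 0.00825) and fell by 1.36 (adjusted p = 0.0128). The Aldh8a1 and Aldh3b1 calls depended on 9mTSCmKO replicate 1. Without it Aldh8a1 differed by 0.43 with genotype (adjusted p = 0.291) and by -0.20 with rapamycin (adjusted p = 0.692), and Aldh3b1 by 0.94 (adjusted p = 0.0746) and -0.92 (adjusted p = 0.0944). The rapamycin call of Aldh8a1 held in 7 of 10 fits that left out 1 library. Aldh1l1, the fifth, rose by 1.06 (adjusted p = 1.57e-05) and fell by 0.54 (adjusted p = 0.0204), and the latter was lost without 9mTSCmKO replicate 2 (adjusted p = 0.0721).

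The 10 genes whose log2 CPM was most like that of each gene over the 40 libraries were found by Pearson correlation. They are given as a description, since the points share groups and the level of 9mTSCmKO dominates the correlation. In 9mTSCmKO, replicate 3 lay above the mean of the other 4 libraries in 10 of the 10 genes most like Adh7 and in 9 of the 10 most like Prr32, as it did for Adh7 and Prr32 themselves. By Spearman's rho, or by deviations from group means, 1 of the 10 genes for Adh7 and 0 of those for Prr32 stayed among the 10 most like. For Adh7, r ranged from 0.834 to 0.904 over the 10 genes, among them Ndrg4, Gm3776, Txn1, Gsta2, Tmem179, Gsta1, Atp6v1h, Uap1l1 and Gdf15. For Prr32, r ranged from 0.887 to 0.948 in Gsta1, Krt8, Gm3776, Gsta2, Cadps, Uchl1, Tmem179, Map7d2, Map1b and Clca4a. Both lists hold 4 genes in common, which are Gm3776, Gsta1, Gsta2 and Tmem179.

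Gsta1 and Gsta2 encode glutathione S-transferases, which attach glutathione to reactive compounds, and Gsta1 was at 0.0390 ± 0.0370 CPM in 9mCON, 5.33 ± 2.82 in 9mTSCmKO and 0.207 ± 0.104 in 9mTSCmKO+RM (SD, n = 5 each). Reads of these and of Gm3776 are uncertain between close copies, since 92.19%, 72.74% and 95.62% of their 31-base stretches occur in other listed genes. Txn1, thioredoxin, was 30.9 ± 3.75 CPM in 9mCON, 87.0 ± 25.1 in 9mTSCmKO and 28.8 ± 7.11 in 9mTSCmKO+RM. Gdf15, a secreted stress hormone, was 0.0901 ± 0.0869, 6.11 ± 3.92 and 0.375 ± 0.190 CPM in the same groups.

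Ndrg4 headed the Adh7 list, and was 3.38 ± 0.830 CPM in 9mCON, 21.3 ± 5.43 in 9mTSCmKO and 3.55 ± 0.693 in 9mTSCmKO+RM (SD, n = 5 each). Atp6v1h, a subunit of the vacuolar proton pump, was 21.7 ± 3.37, 50.5 ± 13.3 and 22.8 ± 1.27 CPM. The treated means of both genes lay within 1 SD of the 9mCON mean, as that of Adh7 did.

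Krt8, a keratin of simple epithelia that muscle fibers can also make, was 0.0227 ± 0.0312 CPM in 9mCON, 16.8 ± 10.2 in 9mTSCmKO and 0.948 ± 0.744 in 9mTSCmKO+RM (SD, n = 5 each). Uchl1, a ubiquitin hydrolase abundant in neurons, was 2.5 ± 0.789, 135.2 ± 83.7 and 15.1 ± 8.31 CPM. Map7d2, a microtubule-associated protein, was 0.779 ± 0.282, 37.5 ± 11.8 and 3.23 ± 1.82 CPM. In each of these 3 genes the treated mean stayed above the 9mCON mean, as that of Prr32 did.

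**Figure D4:**
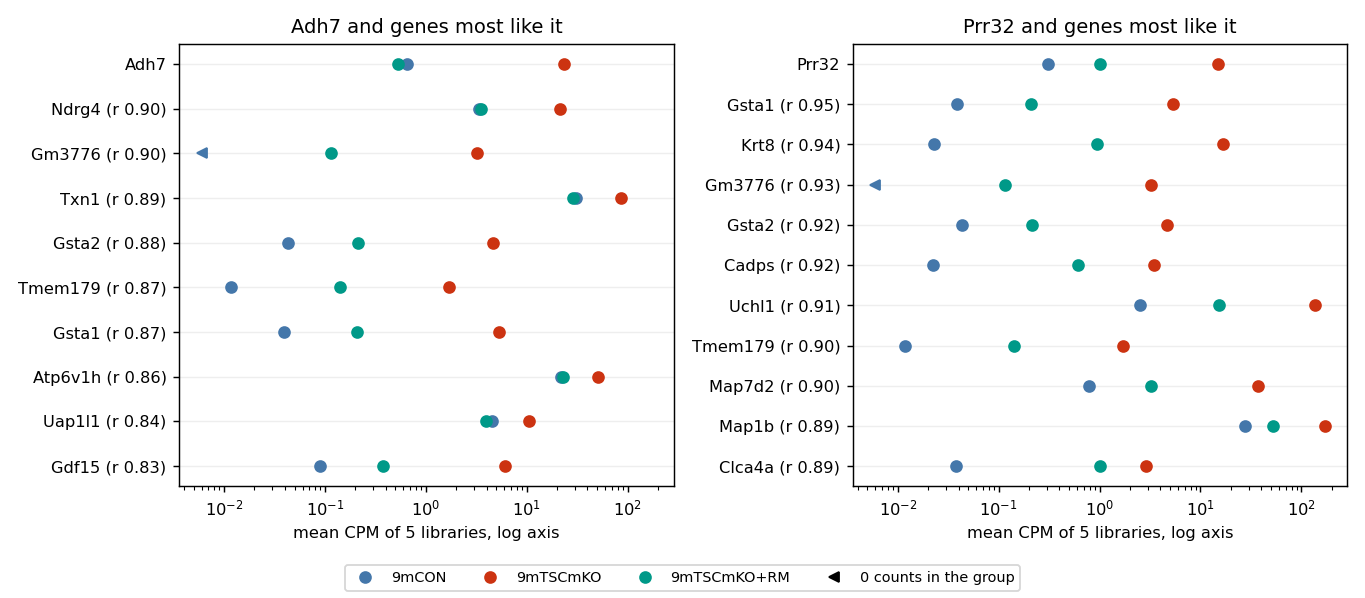
Mean CPM (log axis) of Adh7 and Prr32 and of the named genes most like each in 9mCON (blue), 9mTSCmKO (red) and 9mTSCmKO+RM (green), with Pearson r over 40 libraries behind each name and a left-pointing triangle for a group with 0 counts. For Adh7, Ndrg4, Txn1 and Atp6v1h the green and blue points nearly coincide, while for Gdf15, Gsta1, Gsta2, Gm3776 and Tmem179 in the same panel and for the genes in the Prr32 panel the green point stays above the blue one, as for Krt8 at 0.948 against 0.0227 CPM. Gdf15, Gsta1, Gsta2, Gm3776, Tmem179, Krt8, Cadps and Clca4a had no more than 3 counts in each 9mCON library. Gm3776 was at this floor in 9mTSCmKO+RM too, so that no difference between these groups is read from it.

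Adh7 and Prr32 themselves correlated at r = 0.779 over the 40 libraries. Prr32 held rank 31 among the 13542 other genes for Adh7, and Adh7 rank 126 for Prr32. By Spearman's rho the value was 0.153, and after subtraction of the group means the Pearson correlation was -0.131. The 40 points share 8 groups, and 5 of them, those of 9mTSCmKO, hold the high values of both genes.

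Since Adh7 is known from epithelium, epithelial markers were read beside it. Of 10 listed markers 8 were in the table, with a summed level of 3.80 to 5.22 TPM in 9mCON, 2.44 to 7.15 TPM in 9mTSCmKO and 3.72 to 4.70 TPM in 9mTSCmKO+RM, and 4 were tested. With genotype at 9 months Krt7 rose by 0.82 on the log2 scale (adjusted p = 0.00505 by edgeR) and Krt19 fell by 1.23 (adjusted p = 0.0215), and with rapamycin in 9mTSCmKO 0 of the 4 were called, beside 37.9% and 32.6% of all genes. Krt5 and Krt14, defining keratins of stratified epithelium, had at most 0.0536 and 0.0780 TPM in any library. Krt8 was not on this list, and stood at 0.0227 CPM in 9mCON, 16.8 in 9mTSCmKO and 0.948 in 9mTSCmKO+RM. The part of epithelial cells in the level of Adh7 was not tested.

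The other cell types of whole muscle were read in the same way, each from 4 markers, in 9mCON against 9mTSCmKO. Summed levels were 9.61 to 36.5 against 16.2 to 30.7 TPM for macrophages, 525 to 996 against 238 to 575 TPM for fibroblasts, and 83.3 to 157 against 84.1 to 141 TPM for endothelial cells. Those of satellite cells, the muscle stem cells, were 11.02 to 14.7 against 8.92 to 13.6 TPM. Schwann cell markers had 82.7 to 177 against 46.9 to 136 TPM, and adipocyte markers 10.1 to 19.5 against 1.72 to 7.25 TPM. All 4 markers of each list were tested. With genotype at 9 months 1 macrophage marker, Cd68, was called higher, while Adgre1, Csf1r and Mrc1 had log2 differences of -0.89, -0.73 and -0.47 and were not called. Of the others 2 fibroblast, 1 endothelial, 1 Schwann cell and 2 adipocyte markers were called lower and 0 satellite cell markers in either direction, beside 37.9% of all genes called. In 9mTSCmKO+RM the summed levels were 9.835 to 20.66 TPM for macrophages, 224.4 to 495.5 for fibroblasts, 71.33 to 164.3 for endothelial cells, 7.194 to 13.57 for satellite cells, 42.68 to 93.08 for Schwann cells and 2.238 to 20.75 for adipocytes, all overlapping 9mTSCmKO. With rapamycin in 9mTSCmKO Pax7, of the satellite cell markers, was called higher and Kdr, of the endothelial markers, lower, and 0 of the other 22 were called, beside 32.6% of all genes. The summed levels overlapped between 9mCON and 9mTSCmKO for all of these lists but the adipocyte markers, which were lower in the knockout, and their part in the levels of Adh7 and Prr32 was not tested.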

How the data were processed

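Per the submitters' processing notes, reads were trimmed with cutadapt 1.9.1 and aligned with kallisto 0.43.1 on GRCm38. Poly(A) RNA of whole EDL lysates was sequenced single-end from stranded libraries. The authors deposited a table of estimated counts per gene, all of which were whole numbers, and a table of TPM per gene, for which the authors divided their read counts by transcript length and scaled them to the library. The methods of the study name protein-coding transcripts as the reference, but the tables also list antisense genes, so that the transcript set is uncertain. From kallisto's pseudoalignments the authors shared a read that matched several transcripts equally among them, which can split close copies.

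Counts were tested with edgeR 4.0.16 (R 4.3.3, limma 3.58.1) by a robust quasi-likelihood F-test, with TMM scaling and 1 mean for each of 8 groups over all 40 libraries. Genes with 1 CPM or more in at least 5 libraries were kept (13543 of 22844), p-values were adjusted by Benjamini-Hochberg over all of them, and genes under 0.05 were called. Groups with no more than 3 counts in each library were treated as at the floor, which covers counting error only. The fit was checked on simulated counts. Alternatives were other scalings, no filter, fits on 2 groups, an insert size term, replicate blocks, DESeq2 1.42.0, limma and exact permutation tests on log2 TPM, and leaving out each library.

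Adh7 and Prr32, the gene lists (other alcohol dehydrogenases, retinoid pathway, other aldehyde dehydrogenases and the marker lists), the tests and the alternatives were chosen with earlier results of these data known. Named genes were both members, the other alcohol dehydrogenases, list genes called in opposite directions by genotype and by rapamycin at 9 months (at most the 4 with the largest change per list), Tsc1, the 3 nearest listed genes on each side, and the 10 genes most like each member by Pearson correlation of log2 CPM (prior count 2), of which 1 is not reported here. Krt7, Krt19, the macrophage markers, Pax7, Kdr, the Aldh1a enzymes, Aldh1l1, Rxrg, Stra6 and Rdh5 were named after their values were seen. Replicate numbers showed no clear pairing of the libraries, since in none of 10 comparisons did all 5 pairs correlate above 0.1. Single pairs ran from -0.363 to 0.412, and weak pairing could be missed by this rule. Gene positions came from GENCODE M21. Figures used Python 3.11.15 with pandas 2.3.3, numpy 2.4.6 and matplotlib 3.10.9.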

Additional observations from a re-analysis of the deposited data

Results flagged for a closer look

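In 5 of 32 sets of 5 libraries, formed by 4 genes and 8 groups, the highest or the lowest library stood apart from the other 4 by Dixon's 95% criterion. Chance alone flags about 1 in 20 such sets. Adh7 and Prr32 both stood apart in 9mTSCmKO replicate 3, at 53.39 CPM for Adh7, where the other libraries held 10.8 to 20.4, and at 32.79 CPM for Prr32, where they held 7.28 to 13.3. Adh5 stood apart in the same library, at 69.65 CPM against 49.2 to 54.5 CPM in the others. Adh7 in 9mCON+RM replicate 1 was 1.216 CPM against 0.258 to 0.434 CPM in the other libraries of its group, on 18 counts. Adh5 in 3mCON replicate 3 was the lowest of its group at 38.38 CPM, against 48.0 to 51.8 CPM.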

How the results depend on the processing

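Of 533 values computed under alternatives, 470 stayed as they were, which means the same direction and side of the threshold for a tested difference, a move within the replicate spread for a described one, and within 1.5 times for a count. A change of sign occurred in 13 differences, 0 of them past the threshold of a test. The Adh7 difference with rapamycin in 3mTSCmKO changed sign with upper-quartile scaling (0.01477) and DESeq2 (0.005809), and ran from -0.6241 to 0.2934 when 1 library was left out. Adh7 for age in CON ran from -0.4083 to 0.03564, and for genotype under rapamycin at 9 months from -0.0457 to 0.7525. Prr32 for age in CON, on 10 counts or fewer per library, ran from 2.477 to 3.292, and passed the threshold without 9mCON replicate 5, with DESeq2 (2.97), with limma on log2(TPM + 0.1) (1.86) and in the exact permutation test on log2(TPM + 1) (0.4773, unadjusted p = 0.00794). That permutation test also passed for Prr32 with rapamycin in 9mCON (-0.3486, unadjusted p = 0.0397). On log2(TPM + 1), which shrinks differences of low genes, Adh7 and Prr32 differed by 3.379 and 3.923 for genotype at 9 months and by 3.355 and 4.277 for age in TSCmKO, Adh7 by -3.455 with rapamycin in 9mTSCmKO, and Prr32 by 1.148 for genotype under rapamycin at 9 months.

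Counts of called genes moved by over 1.5 times in fits on both groups alone: genotype at 9 months 2647 (5133 in all groups), rapamycin in 9mTSCmKO 2544 (4410), genotype under rapamycin at 3 months 2495 (1359), rapamycin in 9mCON 554 (1604), rapamycin in 3mCON 419 (92) and age in CON 30 (138). In those fits 4 retinoid genes (12 in all groups) and 6 other aldehyde dehydrogenases (10) were called for genotype at 9 months. For rapamycin in 3mTSCmKO, 1 alcohol dehydrogenase was called there and 1 with upper-quartile scaling (Adh5, 0.28, adjusted p = 0.0203). Without the filter 38 genes were called for rapamycin in 3mCON and 83 for age in CON, with DESeq2 178 and 380, and with insert size 26 for age in CON, where 9mTSCmKO+RM replicate 5, which has no insert size, was dropped. Leaving out 1 library gave 35 to 70 for rapamycin in 3mCON, and 30 (without 9mCON replicate 2) to 942 (without 9mCON replicate 5) for age in CON. The cause was not tested.

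With a replicate block over all groups Adh7 differed by 4.96 for genotype at 9 months and 5082 genes were called, and Prr32 for age in CON by 2.92 (adjusted p = 0.0698). A block within age could not be fitted for the age comparisons. The fits of named genes without 1 library, and those of lists without 9mTSCmKO replicate 3, were added after seeing the data. Prr32 levels at 3 months are limited by depth.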
